A study of Homo sapiens with 2 samples.

Results

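Elastic fibres and crosslinked collagen are built outside the cell, and the genes described here encode the enzymes and the scaffold proteins of that process. They are the 5 lysyl oxidase genes (LOX and LOXL1 to LOXL4), the fibrillin genes FBN1 and FBN2, and ELN, which encodes elastin. The members are all probe sets whose platform annotation names only 1 of these 8 genes, and they came to 19 of the 54675 probe sets of the array and 8 of the 19775 genes named. The genes were chosen by family with measured log2 differences of these arrays already known, those of LOX and FBN1 among them, so the values below are a description and no test was made. Total RNA came from FaDu cells, a human line of pharyngeal squamous carcinoma. One population stably carried GLUT4, the glucose transporter encoded by SLC2A4, and the other the empty control vector. Both were infected with lentivirus and selected with puromycin for stable expression, and each gave 1 Affymetrix Human Genome U133 Plus array. Neither group was replicated, and the methods speak of stable clones without saying how many each array represents.

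Lysyl oxidases are secreted copper enzymes that oxidise lysine side chains of collagen and elastin, and the aldehydes so formed join neighbouring chains into crosslinks. Fibrillins assemble into microfibrils, on which secreted elastin monomers are laid down and crosslinked into the rubber-like core of an elastic fibre. In culture these genes are best known from fibroblasts and smooth muscle cells, while carcinoma cells are known to express LOX and LOXL2, and LOX is a classical target of hypoxia-inducible factors.

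LOX stood apart from the other members, with at least 2.88-fold higher values in the GLUT4-overexpressing cells than in the vector control cells on each of its 3 probe sets. FBN2 and FBN1 were higher on their brightest probe sets, 2.18-fold and 1.70-fold, but not past 1.5-fold on any of their other probe sets. LOXL1 to LOXL4 and ELN stayed within 1.5-fold on all 10 of their probe sets. Past 1.5-fold, 5 of the 19 probe sets (26.3%) were higher and none was lower, while 2.04% of everything on the array was higher and 1.22% lower by that fold. Past 2-fold, 4 were higher, against a share of 0.472% over all probe sets. Counted as genes, each by its brightest probe set over both arrays, 3 of 8 were more than 1.5-fold higher and 0 lower, against 1.84% and 1.54% of all genes. The median of the 8 genes was a log2 difference of 0.22, beside -0.02 over all genes. These shares are given as background only, since the members were chosen with part of these values known.

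The 250 bases before the annotated start of transcription are shown for the genes more than 1.5-fold higher, because LOX has long been described as induced through hypoxia response elements in its promoter. The sequences are those of RefSeq on GRCh38.p14, all from the minus strand, read 5′ to 3′. The windows are chr5:122078260-122078509 for LOX, chr5:128538246-128538495 for FBN2 and chr15:48644971-48645220 for FBN1. Capitals mark the core of the hypoxia response element, ACGTG or GCGTG, on either strand.
LOX: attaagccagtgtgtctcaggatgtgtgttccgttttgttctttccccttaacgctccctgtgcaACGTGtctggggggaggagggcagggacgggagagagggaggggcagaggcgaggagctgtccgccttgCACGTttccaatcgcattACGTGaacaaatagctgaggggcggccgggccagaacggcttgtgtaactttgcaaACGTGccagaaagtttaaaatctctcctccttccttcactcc
FBN2: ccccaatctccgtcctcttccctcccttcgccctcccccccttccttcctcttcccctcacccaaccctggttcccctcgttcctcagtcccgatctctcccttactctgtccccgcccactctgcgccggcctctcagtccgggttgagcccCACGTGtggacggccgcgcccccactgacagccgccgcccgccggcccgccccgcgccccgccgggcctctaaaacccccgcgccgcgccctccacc
FBN1: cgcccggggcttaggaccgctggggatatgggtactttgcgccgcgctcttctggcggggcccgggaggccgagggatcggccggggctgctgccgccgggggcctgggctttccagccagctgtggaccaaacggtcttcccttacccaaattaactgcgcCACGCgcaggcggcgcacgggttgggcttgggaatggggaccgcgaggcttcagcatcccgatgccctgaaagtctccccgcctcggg
The LOX window held 4 such cores, beginning 185, 116, 98 and 42 bases before the start. The FBN2 window held 2 that overlap as the palindrome CACGTG, at 97 and 96 bases, and the FBN1 window held 1 at 88 bases. Of the windows of the other members in the table, those of LOXL1, LOXL3 and LOXL4, none held this core. No window was available for LOXL2 and ELN. The core is a common motif, present in 43.2% of the 35116 windows of the same length, and its bearing on the differences was not tested. CCAAT, present in 32% of windows, was found once in LOX, at 109 bases, and once in FBN2, at 248 bases. The SMAD box CAGAC, present in 38%, was found once each in LOX and LOXL1, and in LOX its letters overlap the outermost hypoxia core. The TEAD site GGAATG, present in 11.9%, was found once in FBN1 and at 2 places in LOXL3. TATAAA (10.7% of windows) and the AP-1 site TGANTCA (6.57%) were in none of the 6 windows. These are matches of letters on both strands, not measured sites. The LOX window was the least rich in G and C of the 6, at 55.2%, and that of LOXL4 the richest, at 86.4%, where the median of all windows was 58.0%.

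LOX encodes the founding enzyme of the family, made as a proenzyme that is cut after secretion. Its brightest probe set, 215446_s_at, had a deposited intensity of 3715 in the GLUT4-overexpressing cells and 1290.5 in the vector control cells, a log2 difference of 1.53. The next, 204298_s_at, read 2447 with GLUT4 and 750.3 with the vector, a difference of 1.71 or 3.26-fold. The dimmest, 213640_s_at, read 441 with GLUT4 and 149 with the vector, a difference of 1.56 or 2.95-fold. All 3 were therefore clearly brighter on the GLUT4 array, and their differences lay within 0.18 of each other. The only technical spread that these data hold is the disagreement between probe sets of the same gene. When the brightest and the next probe set of each of 10523 genes were set against each other, their differences disagreed with an SD of 0.29, which is 0.20 for 1 probe set. With all probe sets divided into 4 equal classes of signal, the SD for 1 probe set was 0.15 where both lay in the brightest class, as all LOX probe sets did. This SD does not cover variation between cultures, nor error that the probe sets of an array share. Differences between transcripts of a gene can add to it. Counted from the most raised of all 54675 probe sets, the LOX probe sets stood at ranks 27, 42 and 46, and by its brightest probe set LOX stood at rank 16 of 19775 genes. Within its own array, the brightest LOX probe set lay at percentile 97.6 of signal with GLUT4, against 93.1 with the vector.

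**Figure D1:**
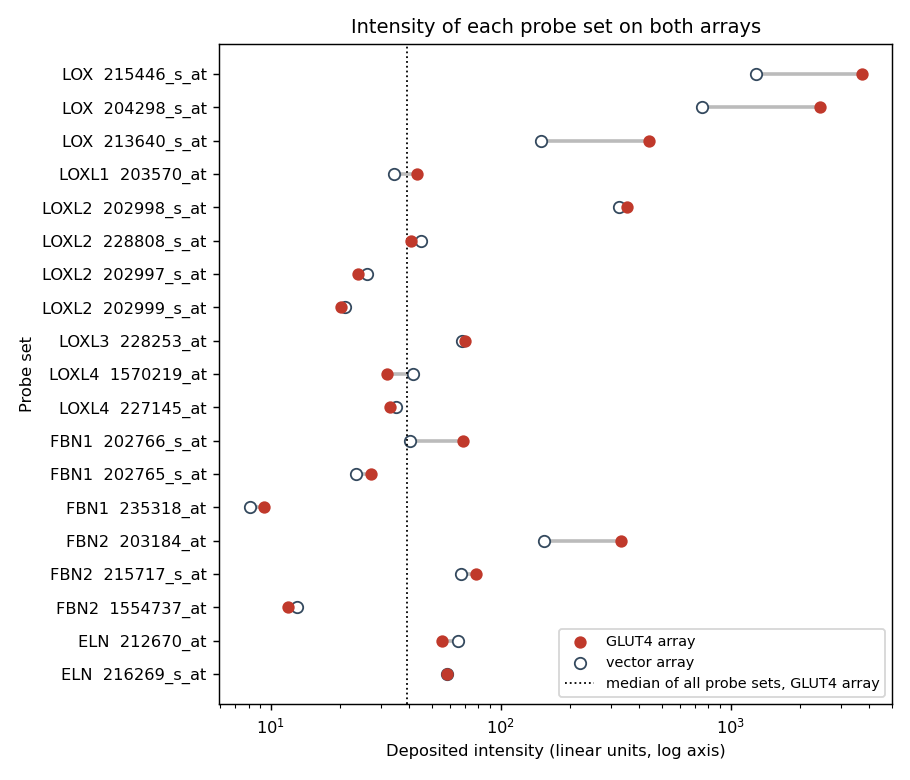
Deposited intensity (horizontal, log axis, linear units) of each of the 19 probe sets (rows) on the GLUT4 array (filled points) and the vector array (open points), joined by a grey line, with the median of all probe sets of the GLUT4 array dotted at 39.1. The longest lines are those of the 3 LOX probe sets, FBN2 203184_at and FBN1 202766_s_at, and most other members lie near the dotted line with both points close together.

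The paralogues LOXL1 to LOXL4 share the catalytic domain of LOX and differ in the part before it. Their brightest probe sets ranged from -0.38 to 0.34 on the log2 scale, all within 1.5-fold. LOXL2, which also oxidises collagen IV of basement membranes, was the paralogue with signal well above the middle of the array. Its brightest probe set read 353 with GLUT4 and 328 with the vector, a difference of 0.11. Its other 3 probe sets were dim, between 20.2 and 40.9 with GLUT4 and between 21.0 and 45.0 with the vector, and gave -0.14, -0.13 and -0.06. All 4 differences of LOXL2 were thus under that SD of 0.20, with 1 above 0 and 3 below.

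LOXL1, the paralogue tied to elastic fibre maintenance, read 43.2 with GLUT4 and 34.2 with the vector on its single probe set, a difference of 0.34. LOXL3, needed for cartilage and palate formation in mice, read 70.0 with GLUT4 and 67.5 with the vector, a difference of 0.05. LOXL4 read 32.1 with GLUT4 and 41.6 with the vector on one probe set, a difference of -0.38, and 33.1 with GLUT4 and 35.1 with the vector on the other, a difference of -0.09. The values of LOXL1 and LOXL4 straddled or lay below the array medians of 39.1 with GLUT4 and 39.7 with the vector. No detection calls were used, so it was not determined whether these genes were expressed.

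FBN2 encodes the fibrillin best known from embryonic tissues. Its brightest probe set, 203184_at, read 334 in the GLUT4-overexpressing cells and 153 in the vector control cells, a difference of 1.12. The next, 215717_s_at, read 77.8 with GLUT4 and 67.1 with the vector, a difference of 0.21. The dimmest, 1554737_at, read 11.8 with GLUT4 and 13.0 with the vector, a difference of -0.14. The 3 probe sets of FBN2 therefore spanned 1.26 on the log2 scale and did not share a direction. Its brightest 2 alone, at 1.12 and 0.21, lay much farther apart than the 0.29 SD of such pairs over all genes. That SD was 0.31 for pairs whose dimmer probe set lay in the same class of signal as that of FBN2. By its brightest probe set FBN2 stood at rank 58 from the top of all genes, but averaged over its probe sets the difference was 0.40, within 1.5-fold. Which part of the transcript each probe set detects was not analysed here.

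FBN1 encodes the main fibrillin of adult connective tissue, the gene mutated in Marfan syndrome. Its brightest probe set, 202766_s_at, read 68.6 with GLUT4 and 40.4 with the vector, a difference of 0.76 and rank 178 of all genes. The others, 202765_s_at and 235318_at, read 27.2 and 9.36 with GLUT4, against 23.5 and 8.11 with the vector, and both gave a difference of 0.21. All 3 probe sets of FBN1 were brighter on the GLUT4 array, and those 2 were below the array medians, about as far from 0 as the SD of a single probe set. Of the 4 classes of signal, the one that holds the brightest FBN1 probe set, next below the brightest class, also had the largest share of all probe sets more than 1.5-fold higher, 3.74%, while the class of LOX and of the brightest FBN2 probe set had 2.03%. Averaged over its probe sets FBN1 came to 0.39, and with 32 added to every intensity its brightest probe set came to 0.48, both within 1.5-fold.

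ELN encodes tropoelastin, the monomer of elastin and a substrate of LOX and LOXL1. It read 55.6 with GLUT4 and 65.3 with the vector on one probe set, a difference of -0.23, and 58.1 with GLUT4 and 58.5 with the vector on the other, a difference of -0.01. Both values lay slightly below 0 and within 1.5-fold.

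**Figure D2:**
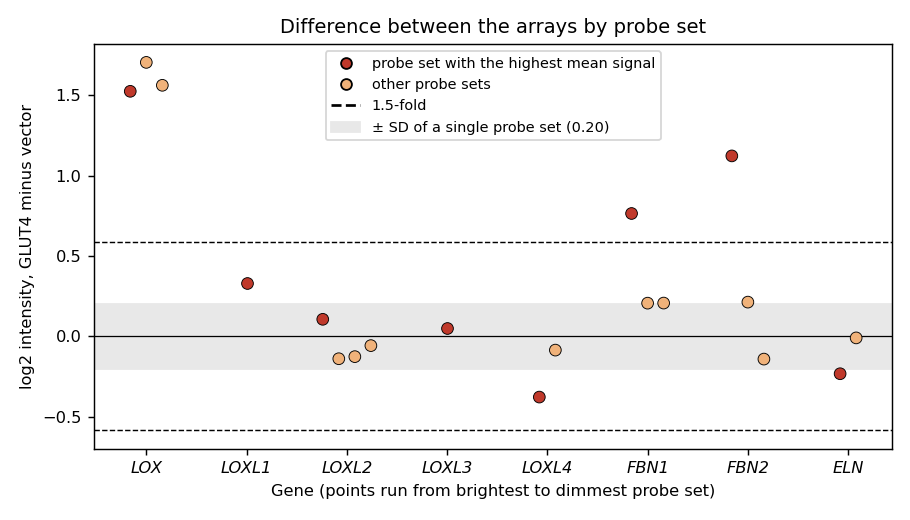
The log2 difference, GLUT4 minus vector (vertical axis), for every probe set of each gene (horizontal axis), with the probe set of highest mean signal in red, dashed lines at 1.5-fold and a grey band of 1 SD of a single probe set (0.20) either side of 0. The 3 LOX points lie together between 1.53 and 1.71, whereas 1 point each of FBN1 and FBN2 passes the upper dashed line.

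**Figure D3:**
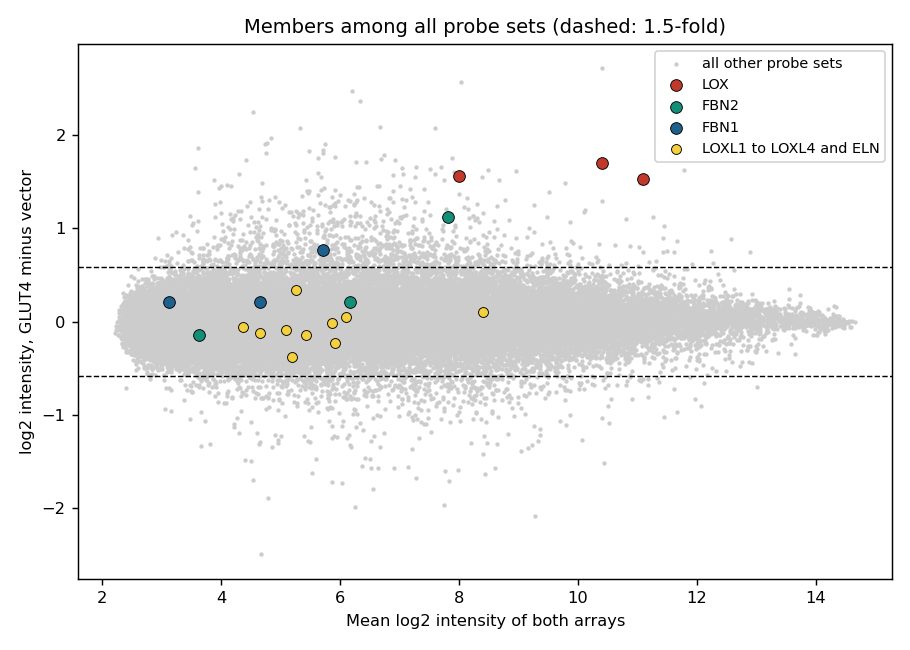
The same difference (vertical axis) against mean log2 signal (horizontal axis) for all 54675 probe sets, with the members coloured and dashed lines at 1.5-fold. The LOX points lie at the upper edge of the cloud at middle to high signal, and the points of LOXL1 to LOXL4 and ELN lie inside the dashed lines.

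LOX and FBN2 are carried on the same chromosome, 5, and the measured genes between them were examined to see whether the stretch differed as a whole. By the brightest probe set of each, the 23 genes had a median difference of -0.05, from -0.48 to 0.41. On that measure 0 passed 1.5-fold in either direction. SLC12A2, the last measured gene before FBN2, was at 0.41 on that measure, but its 2 probe sets averaged 0.61, past 1.5-fold higher. The averages of the others between LOX and FBN2 stayed within 1.5-fold. The measured genes nearest to LOX were SRFBP1, whose annotated span on GRCh38.p14 contains that of LOX, and then ZNF474 and ZNF475 on the side of FBN2. SRFBP1 read 223 with GLUT4 and 165 with the vector on its single probe set, a difference of 0.43, within 1.5-fold. ZNF474 read 66.4 with GLUT4 and 52.2 with the vector, a difference of 0.35, and ZNF475 read 37.6 with GLUT4 and 38.7 with the vector, a difference of -0.04. PRR16, the next measured gene beyond SRFBP1, was at 0.20 on its brightest probe set, while its 2 probe sets averaged 0.59, past 1.5-fold higher.

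Of 23 partners of microfibrils and elastic fibres, 1 was more than 1.5-fold higher with GLUT4, 1 was lower, and the median was -0.08, where 1.84% of all genes were higher and 1.54% lower. The higher gene was EFEMP1, which encodes fibulin-3, with 2485 in the GLUT4-overexpressing cells and 1415 in the vector control cells, a difference of 0.81. Its second probe set gave 0.83, and the remaining, dim one read 23.5 with GLUT4 and 29.6 with the vector, a difference of -0.33. The lower gene was LTBP2, a fibrillin-binding protein of the latent TGF-beta binding family, at 360 with GLUT4 and 916 with the vector. Its second probe set read 196 with GLUT4 and 606 with the vector, so that its differences were -1.35 and -1.63. EFEMP2 (fibulin-4) and FBLN5 (fibulin-5), which bring LOX enzymes and elastin together, were dim. EFEMP2 read 21.6 with GLUT4 and 21.7 with the vector, and FBLN5 25.01 with GLUT4 and 20.7 with the vector. THSD4, which promotes microfibril assembly, was at -0.21, LTBP3 at -0.40 and LTBP1 at -0.24, all within 1.5-fold.

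Of 12 genes for the maturation and copper supply of lysyl oxidases, 2 were more than 1.5-fold higher and none was lower, with a median of -0.02. BMP1, the protease that cuts the LOX proenzyme, read 105 with GLUT4 and 114 with the vector on its brightest probe set, a difference of -0.12, and its 7 probe sets averaged -0.07. ATP7A, the pump that loads copper into secreted enzymes, read 78.9 with GLUT4 and 71.9 with the vector, a difference of 0.14. The copper chaperone ATOX1 was at 0.00 and the copper importer SLC31A1 at -0.19. FN1, which encodes fibronectin, a binding partner of LOX, was bright and nearly equal on both arrays by its brightest probe set, at 14861 with GLUT4 and 15213 with the vector (-0.03). Of its 7 probe sets, the 4 bright ones lay between -0.03 and -0.01, while the 3 far dimmer ones gave 0.14, 0.45 and 0.90, and all 7 averaged 0.20. The last of these was past 1.5-fold, at 105 with GLUT4 and 56.0 with the vector. The genes past 1.5-fold, TLL1 and TLL2, encode proteases related to BMP1, and both lay far below the array medians. TLL1 read 11.4 with GLUT4 and 7.08 with the vector, a difference of 0.69, and TLL2 18.0 with GLUT4 and 10.7 with the vector, a difference of 0.75. With 16 added to every intensity these came to 0.25 and 0.35, and neither was past 1.5-fold. Their other probe sets gave 0.30 for TLL1 and 0.05 and -0.05 for TLL2.

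None of 11 fibrillar collagen chains, the main substrates of LOX, passed 1.5-fold on its brightest probe set, and their median was 0.11. The brightest within this list were COL5A2, at 1044 with GLUT4 and 792 with the vector (0.40), COL5A1, at 294 with GLUT4 and 214 with the vector (0.45), and COL1A1, at 226 with GLUT4 and 224 with the vector (0.01). Both probe sets of COL5A2 and all 3 of COL5A1 were above 0, at 0.25 or more. Over all 33 probe sets of this list, 1 passed 1.5-fold, a dim one of COL1A1, at 34.2 with GLUT4 and 16.3 with the vector, a difference of 1.07. The other 3 dim probe sets of COL1A1 gave -0.05, -0.11 and -0.12. None of 17 collagen-modifying enzymes and chaperones passed 1.5-fold either, on any of their 33 probe sets, with a median of 0.00 and a range from -0.32 to 0.27. PLOD2, which hydroxylates the lysines from which the stable collagen crosslinks form, read 3467 with GLUT4 and 4159 with the vector, a difference of -0.26. The prolyl hydroxylase subunit P4HB was at 0.07 and the folding enzyme PPIB at 0.07.

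Of 13 enzymes that degrade elastin and components of the elastin receptor, 1 was more than 1.5-fold higher and 1 lower, with a median of 0.05. CTSV, the cathepsin with strong elastin-degrading activity, read 851 with GLUT4 and 528 with the vector, a difference of 0.69. MMP9, a gelatinase, read 122 with GLUT4 and 187 with the vector on its single probe set, a difference of -0.62. With 16 added to every intensity MMP9 came to -0.56, and with 32 added to -0.51, both within 1.5-fold. The elastin-binding lectin LGALS3 was at 0.07, CTSL at 0.15 and CTSA, a subunit of the receptor, at 0.13. Over the 5 lists together, 4 of 76 genes were more than 1.5-fold higher (5.26%) and 2 lower (2.63%), beside 1.84% higher and 1.54% lower over all genes.

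**Figure D4:**
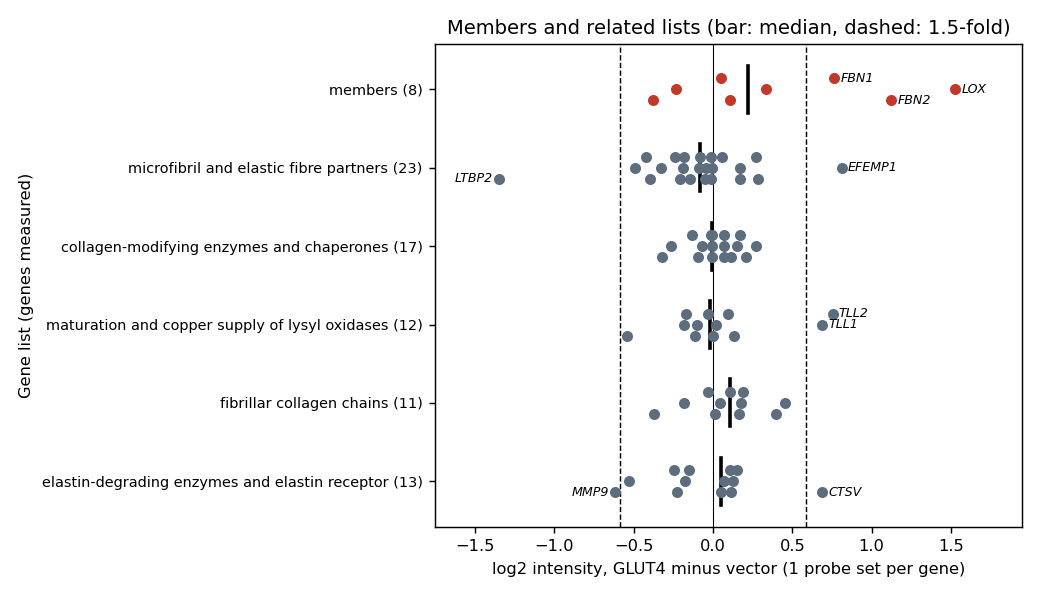
The log2 difference, GLUT4 minus vector (horizontal axis), at 1 probe set per gene, for the 8 members (red) and the 5 related lists (grey), with the median of each as a bar and 1.5-fold dashed. The bars of the lists lie between -0.08 and 0.11, and LTBP2 is the point farthest to the left at -1.35.

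All 7 measured genes of a list of squamous epithelium markers were above the array medians on both arrays. Lying above a median asks little, so this is a weak check of the labelled cell type. The 7 genes read from 556 to 13093 with GLUT4 and from 516 to 11921 with the vector. KRT6A, KRT17 and TP63, also among the 10 listed, had no value here. Among the measured markers KRT14, a basal keratin, read 3985 with GLUT4 and 1963 with the vector, more than 1.5-fold higher. The adhesion gene EPCAM read 3020.5 with GLUT4 and 5361 with the vector, more than 1.5-fold lower. CDH1 read 2224 with GLUT4 and 3223 with the vector, a difference of -0.54, within 1.5-fold. SLC2A4 read 32.6 with GLUT4 and 28.3 with the vector, which does not check the labels, because whether its probe set detects the introduced sequence was not determined. Of 10 markers of fibroblasts and mural cells, 2 were more than 1.5-fold higher with GLUT4 and none was lower. Over all genes, 1.84% were higher and 1.54% lower by that fold. The 2 higher markers were DCN and LUM, encoding the proteoglycans decorin and lumican. DCN read 1050.1 with GLUT4 and 482 with the vector, and LUM 79.9 with GLUT4 and 38.5 with the vector. Of the 10, 6 lay above the array medians on both arrays. Besides DCN these were ACTA2, of smooth muscle actin (602 with GLUT4, 609 with the vector), COL1A1, given above, TAGLN (94.4 with GLUT4, 99.3 with the vector), THY1 (63.4 with GLUT4, 66.3 with the vector) and PDGFRB (49.3 with GLUT4, 43.1 with the vector). LUM was above the median with GLUT4 alone. The remaining 3, COL1A2 (35.4 with GLUT4, 31.6 with the vector), COL3A1 (17.4 with GLUT4, 15.2 with the vector) and PDGFRA (15.3 with GLUT4, 17.9 with the vector), lay below the medians on both. The summed intensity of the 10 was 2234 with GLUT4 and 1627 with the vector. DCN alone made up 1050.1 and 482 of these sums, so they mostly reflect that 1 gene. Both arrays are labelled as FaDu cells, and no fibroblasts or mural cells are named. These markers are therefore read as RNA of the cultured line, and their bearing on the LOX and fibrillin values was not tested. The markers of endothelium summed to 111 with GLUT4 and 107 with the vector, and those of leukocytes to 118 with GLUT4 and 114 with the vector.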

How the data were processed

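One array of FaDu cells carrying GLUT4 and one of FaDu cells carrying the control vector were used. The values that the authors deposited are linear intensities, already normalized between the arrays, with medians of 39.1 with GLUT4 and 39.7 with the vector and the same maximum on both. The methods name GeneSpring and log2 values, while the submitters' notes give MAS5, with no version, and the order of these steps is not known. After a floor of 1, log2 values were taken, and each difference is GLUT4 minus vector. Genes were named from the 41097 probe sets annotated to a single gene. The probe set with the highest mean log2 value of both arrays stood for its gene. The fold of 1.5 is that of the study's methods. The number of arrays limits the precision, and no test was possible.

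The members and lists were chosen with earlier results of these data known. The 5 lists hold 78 genes, of which 76 were measured. The text names every member, the list genes past 1.5-fold, up to 3 bright genes of each list within it, and BMP1, ATP7A, EFEMP2 and FBLN5. ZNF474, ZNF475, SRFBP1, SLC12A2, PRR16, KRT14, EPCAM, CDH1 and the fibroblast markers were added after their values were seen. Promoters came from the RefSeq table of GRCh38.p14, which gave 6 of the 8 members, at the outermost start of each. The calculation was tested on simulated data. Python 3.11.15 was used with statsmodels 0.14.6 (loess, fraction 0.3), pandas 2.3.3, numpy 2.4.6 and matplotlib 3.10.9.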

Additional observations from a re-analysis of the deposited data

How the results depend on the processing

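The difference of LOX stayed between 1.502 and 1.60 under the 8 alternatives that gave it a value. These were equal array medians, quantile normalization, removal of a loess fit, offsets of 32 and 16, and a filter at the median signal. The others were the mean and the median of all probe sets of a gene. The filter could not move LOX, since its brightest probe set is kept. The sorted log2 values of the deposited arrays differed by at most 0.15, so equal medians and quantile normalization could change little. Without probe sets named s_at or x_at there was no value for LOX and LOXL2. FBN1 came to 0.48 with the offset of 32, 0.21 without those probe sets, 0.39 as the mean and 0.21 as the median of its probe sets. FBN2 came to 0.40 as the mean and 0.21 as the median. The number of member genes more than 1.5-fold higher was then 1 in place of 3 as the mean, as the median and without s_at and x_at probe sets. The gene was LOX as the mean and as the median, and FBN2 without those probe sets. Without them 1 member probe set in place of 5 was more than 1.5-fold higher. With the offset of 32 the number of genes was 2. On the values as deposited, 2 genes were more than 2-fold higher. The median of the members was 0.44 with the filter, which left out LOXL1 and LOXL4. Over the related lists, 2 genes in place of 4 were higher with either offset, the filter or the median of probe sets, 1 with the mean, and 0 past 2-fold. For those lower, the count was 1 in place of 2 with either offset, without s_at and x_at probe sets, and past 2-fold. LOXL2 lay between -0.09 and 0.13, within 1.5-fold throughout. Under every scaling the median of all probe sets lay between -0.01 and 0.01. No paired analysis was possible because each group had 1 array. Dim probe sets limit what can be said of LOXL1, LOXL4, TLL1 and TLL2.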
